A study of Penicillium oxalicum with 24 samples.

Results

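The gene expression of a Δ*amyR* strain of the filamentous fungus *Penicillium oxalicum* was set against that of the Δ*creA-gpdA*(p)::*clrB* strain on cellulose. The comparison holds 6 of the 24 RNA-seq libraries of the series, 3 of each strain, which were chosen by the strain and medium in their names. In Δ*amyR*, the gene of the starch regulator AmyR was deleted. In Δ*creA-gpdA*(p)::*clrB*, the gene of the carbon repressor CreA was deleted and *clrB*, the gene of a cellulase activator, was driven by the *gpdA* promoter of *Aspergillus nidulans*. Both strains were grown for 22 h on 2% glucose, kept for 2 h without carbon source and moved for 4 h to 2% cellulose, and total RNA was taken from mycelia. Values of Δ*creA* and of wild-type, 3 libraries each from the same treatment, are given beside them where they help to place a gene. The study's screening deletions were made in a strain without the repair gene *pku70*, but mutants of the regulators it followed up were made anew in wild-type, which the strain list gives as the background of both strains. For Δ*creA-gpdA*(p)::*clrB* a *creA* cassette with a hygromycin marker was put into a strain that already carried the *clrB* construct with a pyrithiamine marker, and effects of the markers cannot be told apart from those of the regulators.

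AmyR, CreA and ClrB are DNA-binding regulators of genes for the breakdown of plant polymers. AmyR is known in *Aspergillus* species as the activator of amylase and glucosidase genes. CreA shuts off genes for the use of other carbon sources while glucose is present, and ClrB, like its counterpart in *Neurospora crassa*, activates cellulase genes when cellulose is present. Cellulose is cleaved outside the cell by cellobiohydrolases, endoglucanases and oxidative monooxygenases, β-glucosidases split the cellobiose and cellodextrins that result, and transporters carry these sugars into the cell.

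On the 9176 genes tested, Δ*amyR* libraries held between 7462994 and 8534787 unique reads and Δ*creA-gpdA*(p)::*clrB* libraries between 8258722 and 8579128. Expression is given as the deposited RPKM, the reads of a gene scaled to its length and to all reads of the library on genes. The 20 genes with the most reads took 16.99% to 18.4% of the reads in Δ*amyR* libraries and 26.4% to 32.5% in Δ*creA-gpdA*(p)::*clrB* libraries, so an unchanged gene has a lower RPKM in the second strain. Fold changes were therefore taken from read counts scaled by TMM, which sets each library by the bulk of its genes, in an edgeR quasi-likelihood fit. A gene was called higher or lower when its adjusted p was under 0.05 and its log2 fold change, Δ*amyR* over Δ*creA-gpdA*(p)::*clrB*, lay beyond 1 in either direction. Over all 24 libraries of the series, fitted together, replicates differed by a common coefficient of variation of 19.9%, which is not the spread of either strain alone. The Δ*creA-gpdA*(p)::*clrB* replicates stood farther apart (Pearson's r of log2 RPKM between libraries, over genes, 0.966 to 0.977) than the Δ*amyR* replicates (0.983 to 0.992).

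The 3 engineered genes followed the labels. The *amyR* gene (PDE_03964) had 1, 0 and 0 reads in Δ*amyR* libraries, against 341, 258 and 332 reads in Δ*creA-gpdA*(p)::*clrB* libraries. With 3 reads set as the floor, its RPKM was at least 98.3-fold lower in Δ*amyR* than in Δ*creA-gpdA*(p)::*clrB* and at least 1039-fold lower than in wild-type. The Δ*creA-gpdA*(p)::*clrB* strain itself had little *amyR* transcript, 21.7, 16.3 and 21.8 RPKM, against a mean of 211 RPKM in wild-type (log2 fold change -2.66, called lower) and of 124 RPKM in Δ*creA*. The *creA* gene (PDE_03168) had 3690, 4687 and 3348 reads in Δ*amyR* libraries and no read in any Δ*creA-gpdA*(p)::*clrB* library, which is at least 1366-fold higher in Δ*amyR*. For *clrB* (PDE_05999), Δ*amyR* libraries had 122, 116 and 92.8 RPKM and Δ*creA-gpdA*(p)::*clrB* libraries 376, 546 and 358 RPKM. This was a log2 fold change of -2.30 ± 0.18 (SE, adjusted p = 2.9e-09), and *clrB* in Δ*amyR* was not called against wild-type (110 RPKM, log2 fold change 0.42). Reads of the native and the introduced *clrB* cannot be told apart. The 2 strains thus differ at 3 regulator genes at once, and no difference below can be assigned to a single regulator.

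**Figure D1:**
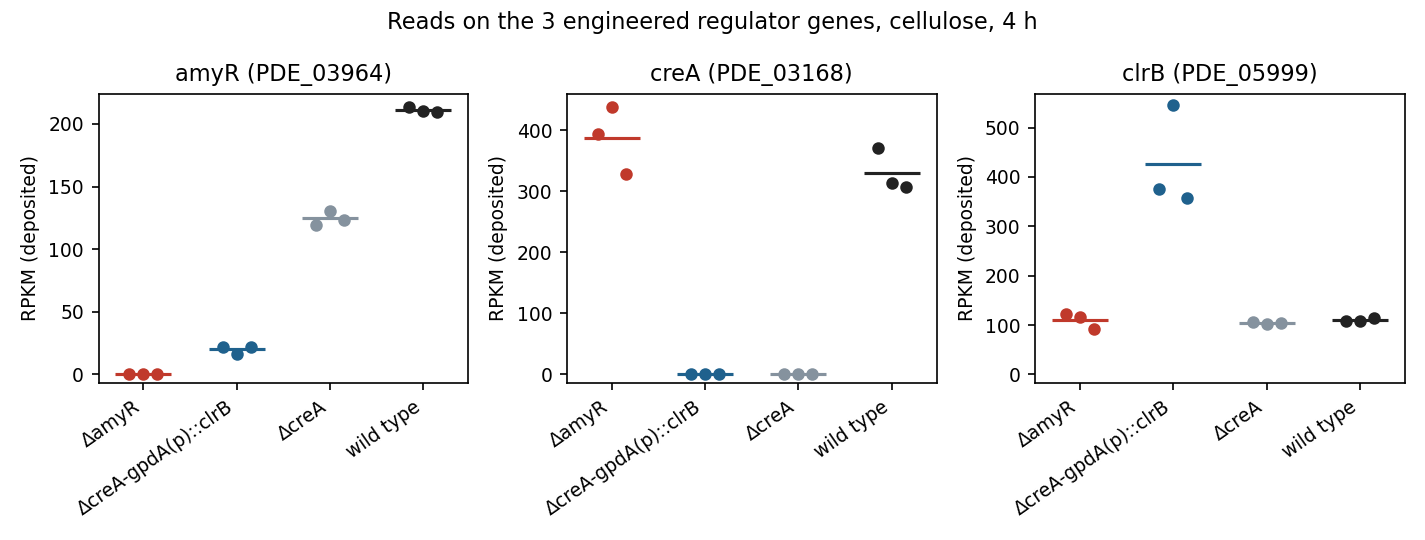
RPKM of *amyR*, *creA* and *clrB* in each library of Δ*amyR*, Δ*creA-gpdA*(p)::*clrB*, then Δ*creA* and wild-type on cellulose (points, 3 libraries a strain; lines, means; each panel has its own linear axis). The *amyR* points of Δ*amyR* lie at or near 0 and those of Δ*creA-gpdA*(p)::*clrB* between 16.3 and 21.8 RPKM, while *creA* is at 0 in Δ*creA-gpdA*(p)::*clrB* and *clrB* is highest there.

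Of 9176 genes tested, 1288 (14.0%) were called higher and 1419 (15.5%) lower in Δ*amyR* than in Δ*creA-gpdA*(p)::*clrB*, and the median log2 fold change was 0.002. These shares belong beside each list count between the 2 strains below. The split depends on the scaling. When libraries were scaled to their total reads, the median of all genes moved to 0.34 and the counts became 1948 higher and 949 lower, so that 67.2% of calls were higher in Δ*amyR*, against 47.6% with TMM. Log2 fold changes of single genes below are relative to the median gene, and where a gene named below is called under only 1 of the 2 scalings, this is said beside it. Among the called genes, 132 had at most 3 reads in every library of the lower strain, 99 of them low in Δ*creA-gpdA*(p)::*clrB* and 33 low in Δ*amyR*. For such genes only a bound against 3 reads is given. Bounds, also those above, are ratios of RPKM and are not scaled by TMM. Scaled to total reads, the median gene stood at 0.34, so bounds of genes higher in Δ*amyR* are larger than they would be with TMM. The same holds for *amyR* against wild-type, where that median was -0.43.

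**Figure D2:**
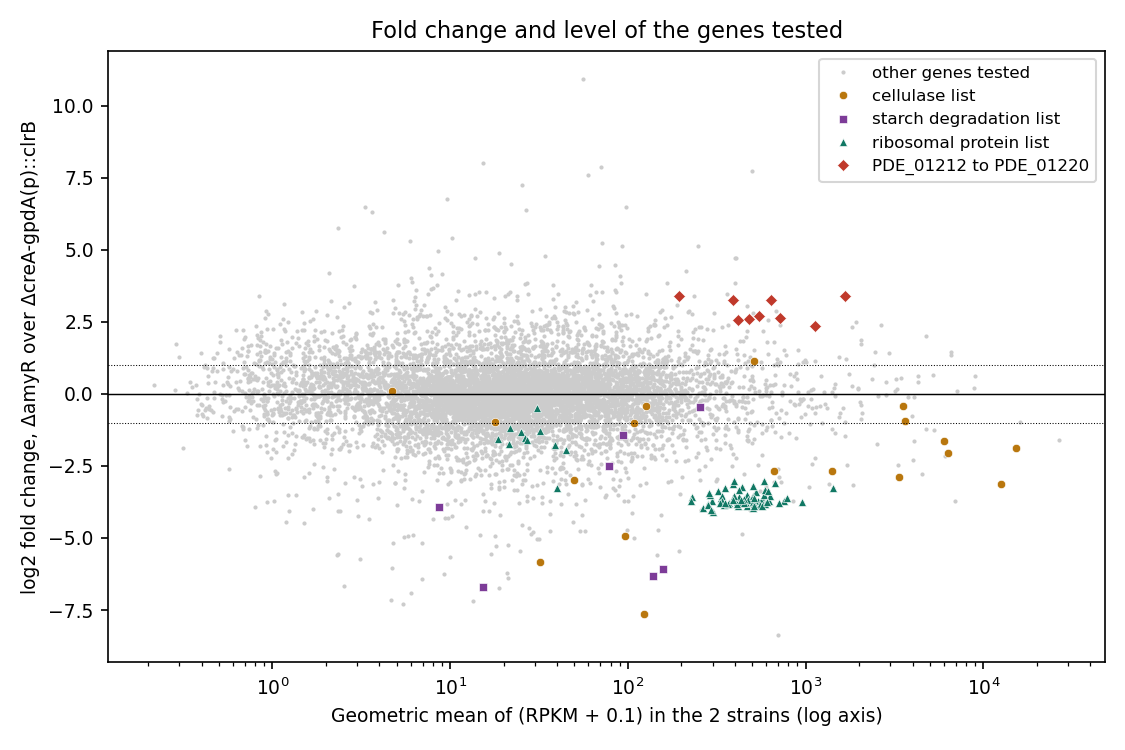
Log2 fold change of Δ*amyR* over Δ*creA-gpdA*(p)::*clrB* against the geometric mean of (RPKM + 0.1) in both strains (log axis), for the 8585 genes tested in which neither strain had at most 3 reads in every library; each point is 1 gene and dotted lines mark a log2 fold change of 1 and -1. Cellulase, starch degradation and ribosomal protein genes lie mostly below 0, the last in a dense band around a median of -3.68, and PDE_01212 to PDE_01220 lie above 0.

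Most cellulase genes were lower in Δ*amyR* than in Δ*creA-gpdA*(p)::*clrB*, and most were higher in both than in wild-type. Of the 18 genes of the cellulase list, 12 were called lower and 1 higher, with a median log2 fold change of -1.96. The list took 4.47%, 5.16% and 3.67% of the reads of the Δ*amyR* libraries and 12.8%, 14.7% and 15.9% of those of the Δ*creA-gpdA*(p)::*clrB* libraries, with means of 10.7% in Δ*creA* and 0.681% in wild-type. The ranges of the 2 strains did not overlap, and both lay above all wild-type libraries. Against wild-type, 11 of the 18 were called higher in Δ*amyR* (3.36% of all genes) and 1 lower (4.18% of all genes), and 14 were called higher in Δ*creA-gpdA*(p)::*clrB* (11.3% of all genes) and 0 lower (12.2% of all genes). Both comparisons use the same wild-type libraries.

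The cellobiohydrolases carried much of this difference. Cel6A (PDE_07124), which releases cellobiose from the non-reducing chain end, had 5116, 5621 and 3607 RPKM in Δ*amyR* libraries and 29526, 32748 and 36391 RPKM in Δ*creA-gpdA*(p)::*clrB* libraries, with a mean of 291 RPKM in wild-type. Its log2 fold change was -3.12 ± 0.36 (SE, adjusted p = 4.0e-07). The other main cellobiohydrolase, *cbh1* (PDE_07945; Cel7A type, acting from the reducing end), had 8562, 11191 and 7098 RPKM in Δ*amyR* libraries and 25085, 25975 and 27318 RPKM in Δ*creA-gpdA*(p)::*clrB* libraries (wild-type mean 1002 RPKM). It was lower in Δ*amyR* by a log2 fold change of -1.88 ± 0.35 (SE, adjusted p = 1.2e-04). The order of the pair was reversed between strains: *cbh1* was the higher in every Δ*amyR* library and Cel6A in every Δ*creA-gpdA*(p)::*clrB* library. Another predicted cellobiohydrolase, PDE_05445, had 6.79, 5.08 and 2.17 RPKM in Δ*amyR* libraries and 225, 226 and 188 RPKM in Δ*creA-gpdA*(p)::*clrB* libraries, with a wild-type mean of 2.62 RPKM (log2 fold change -5.85 ± 0.28, SE).

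Endoglucanases, which cut within cellulose chains, fell into groups of large, moderate and no difference. The largest was at PDE_06439, annotated as a xyloglucan-specific endoglucanase, with 11.4, 10.7 and 7.06 RPKM in Δ*amyR* libraries against 1112, 1508 and 2029 RPKM in Δ*creA-gpdA*(p)::*clrB* libraries (log2 fold change -7.65 ± 0.33, SE, adjusted p = 7.8e-13). It was not called between Δ*amyR* and wild-type (8.01 RPKM, log2 fold change 0.69). PDE_02886 has the same annotation and the same layout, with 22.0, 20.1 and 16.4 RPKM in Δ*amyR* libraries and 407, 456 and 555 RPKM in Δ*creA-gpdA*(p)::*clrB* libraries (log2 fold change -4.93 ± 0.21, SE). These 2 genes and PDE_05445 were the members of the list with the largest differences, and only PDE_05445 of them was called in Δ*amyR* over wild-type (1.24). *eg2* (PDE_09226) had 3619, 3987 and 2916 RPKM in Δ*amyR* libraries and 8657, 11845 and 13784 RPKM in Δ*creA-gpdA*(p)::*clrB* libraries (wild-type 249 RPKM, log2 fold change -2.04 ± 0.25, SE, adjusted p = 9.8e-07). Cel5A (PDE_00507, log2 fold change -2.90), Cel7B (PDE_07929, -1.64) and PDE_05193 (-2.98) were also called lower. PDE_05193 was uneven in Δ*amyR*, with 37.6, 15.96 and 6.47 RPKM, and its log2 fold change without Δ*amyR* replicate 1 was -3.80. The oxidative enzymes Cel61A (PDE_05633) and PDE_01261 each had a log2 fold change of -2.69.

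A few cellulase genes did not follow. Cel5C (PDE_09969) had 3552, 3898 and 2758 RPKM in Δ*amyR* libraries and 2549, 4011 and 4319 RPKM in Δ*creA-gpdA*(p)::*clrB* libraries, so that the strains overlapped (log2 fold change -0.43 ± 0.29, SE, adjusted p = 0.215). Against wild-type its log2 fold changes were 3.27 in Δ*amyR* and 3.70 in Δ*creA-gpdA*(p)::*clrB*, both called higher. Cel45A (PDE_07928) had a log2 fold change of -0.95 and PDE_09014 of -0.99, both short of the fold limit. Cel45A was called lower without Δ*creA-gpdA*(p)::*clrB* replicate 1 (-1.11) or Δ*amyR* replicate 2 (-1.03), and PDE_09014 without Δ*creA-gpdA*(p)::*clrB* replicate 1 (-1.03) or 2 (-1.17) or Δ*amyR* replicate 3 (-1.16). PDE_03711 was called lower at -1.03, but not with scaling to total reads nor without Δ*creA-gpdA*(p)::*clrB* replicate 2 (-0.62), Δ*amyR* replicate 2 (-0.92) or Δ*amyR* replicate 3 (-0.99). The remaining call was in the other direction: PDE_09267, a predicted endoglucanase, had 914, 861 and 781 RPKM in Δ*amyR* libraries and 263, 306 and 354 RPKM in Δ*creA-gpdA*(p)::*clrB* libraries (log2 fold change 1.13 ± 0.16, SE, adjusted p = 7.7e-06). PDE_00698 and PDE_06768 were not called.

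The β-glucosidases split. *bgl2* (PDE_00579) had 1480, 1726 and 1479 RPKM in Δ*amyR* libraries and 3014, 4378 and 4882 RPKM in Δ*creA-gpdA*(p)::*clrB* libraries (wild-type 522 RPKM, log2 fold change -1.73 ± 0.19, SE, adjusted p = 2.3e-07). *bgl1* (PDE_02736) had 393, 374 and 319 RPKM in Δ*amyR* libraries and 57.9, 33.8 and 69.5 RPKM in Δ*creA-gpdA*(p)::*clrB* libraries, around a wild-type mean of 254 RPKM (log2 fold change 2.43 ± 0.30, SE, adjusted p = 8.5e-07). *bgl1* was not called in Δ*amyR* over wild-type (0.92) and was called lower in Δ*creA-gpdA*(p)::*clrB* over wild-type (-1.51). PDE_04251 (-0.40) and PDE_04859 (-0.82) were not called.

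Of 8 predicted sugar transporters, 3 were called lower (15.5% of all genes) and 0 higher (14.0% of all genes). The cellodextrin transporter CdtC (PDE_00607) had 4146, 4152 and 3301 RPKM in Δ*amyR* libraries and 6061, 8162 and 7598 RPKM in Δ*creA-gpdA*(p)::*clrB* libraries (log2 fold change -1.25 ± 0.21, SE, adjusted p = 3.6e-05), a call that ended with scaling to total reads (-0.91). CdtD (PDE_00753) was at -0.78 and was not called. PDE_07257 was called lower at -2.06. PDE_04150, annotated as an α-glucoside transporter, was called lower at -1.37 although its libraries overlapped, with 51.0, 72.6 and 154 RPKM in Δ*amyR* and 333, 187 and 49.7 RPKM in Δ*creA-gpdA*(p)::*clrB*. It was not called without Δ*creA-gpdA*(p)::*clrB* replicate 1 (-0.77) or Δ*amyR* replicate 1 (-1.08). PDE_04857 was at 0.73, not called, and was called higher with scaling to total reads (1.07). PDE_03571, PDE_06576 and PDE_09994 were not called. The swollenin gene PDE_02102, whose product loosens cellulose, had 3525, 3780 and 3274 RPKM in Δ*amyR* libraries and 5402, 6369 and 7582 RPKM in Δ*creA-gpdA*(p)::*clrB* libraries (log2 fold change -1.21, adjusted p = 0.00204), not called with scaling to total reads (-0.87).

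**Figure D3:**
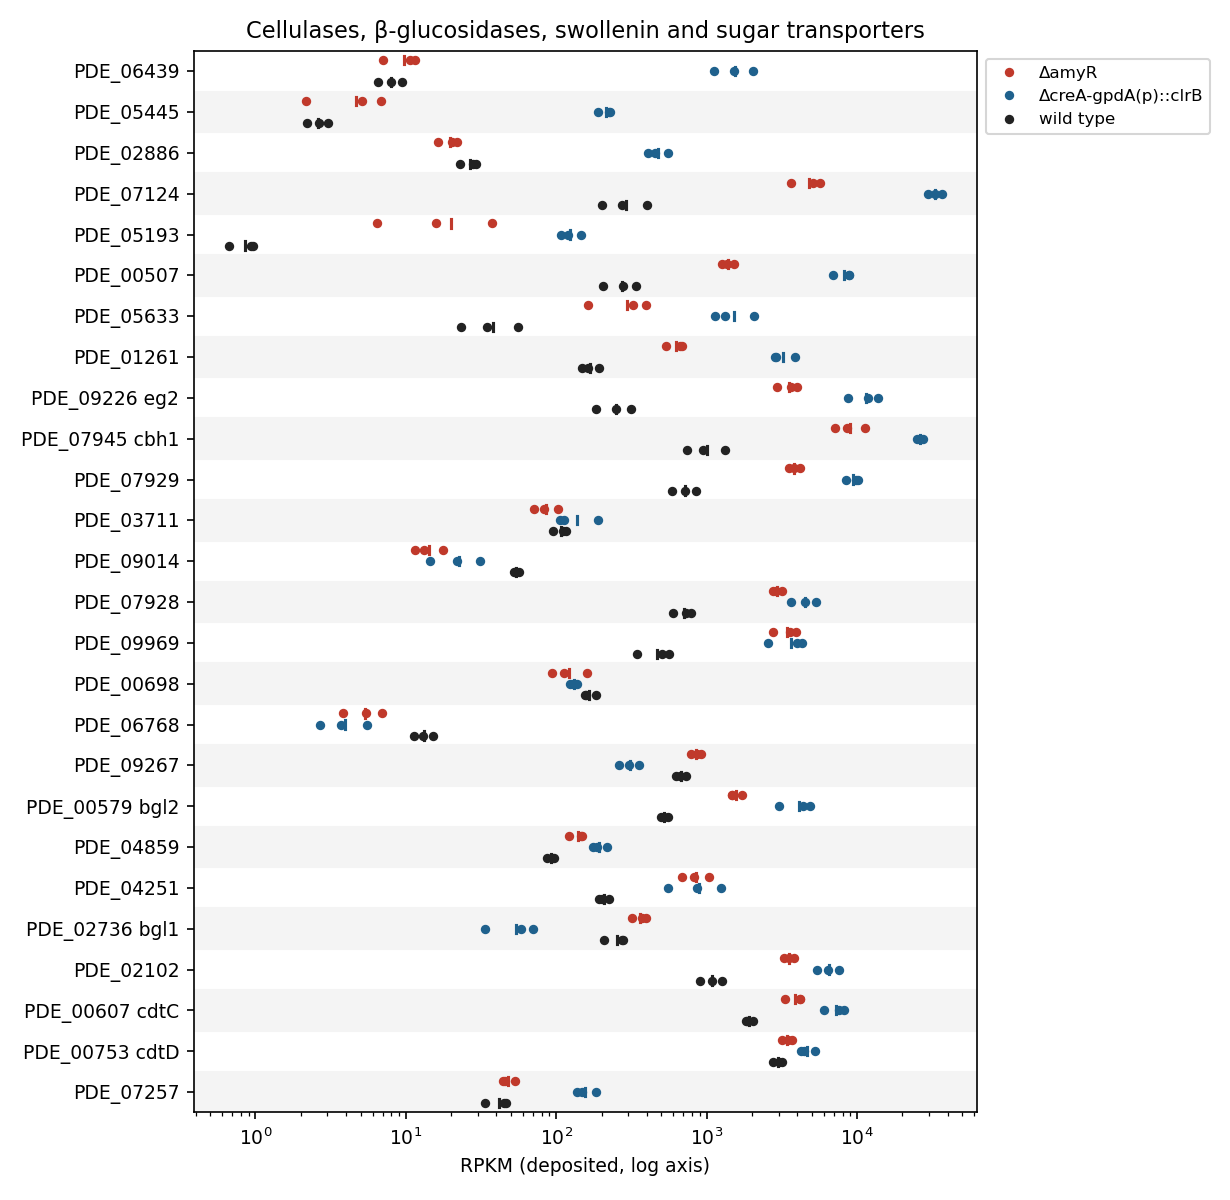
RPKM (log axis) of the 18 cellulase genes, 4 β-glucosidases, swollenin and 3 sugar transporters in each library of Δ*amyR*, Δ*creA-gpdA*(p)::*clrB* and also wild-type (points; vertical ticks are means of 3 libraries). In the upper 3 rows the Δ*amyR* points lie near wild-type and far from Δ*creA-gpdA*(p)::*clrB*, as for PDE_06439, in the middle rows they lie between both, as for *cbh1*, and for *bgl1* the Δ*creA-gpdA*(p)::*clrB* points are the lowest.

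Xylan, the main hemicellulose, is cut by xylanases, and 6 of 8 genes of the xylanase list were called lower and 0 higher, with a median of -1.88. The largest decrease among genes not at the floor was at the predicted xylanase PDE_02418. It had 54.0, 35.99 and 39.6 RPKM in Δ*amyR* libraries and 9667, 10866 and 12985 RPKM in Δ*creA-gpdA*(p)::*clrB* libraries, with means of 4968 RPKM in Δ*creA* and 46.4 RPKM in wild-type (log2 fold change -8.35 ± 0.30, SE, adjusted p = 9.6e-14). Between Δ*amyR* and wild-type this gene was not called (log2 fold change 0.31). PDE_00014, another predicted xylanase, had 2, 1 and 0 reads in Δ*amyR* libraries and 183, 215 and 233 in Δ*creA-gpdA*(p)::*clrB* libraries, at least 66.6-fold lower in Δ*amyR*, and no read in wild-type. The abundant PDE_04478 had 18858, 17714 and 15302 RPKM in Δ*amyR* libraries and 33911, 38981 and 51568 RPKM in Δ*creA-gpdA*(p)::*clrB* libraries (log2 fold change -1.60). For *xyn1* (PDE_08094), Δ*amyR* libraries had 12974, 13858 and 11787 RPKM and Δ*creA-gpdA*(p)::*clrB* libraries 16224, 22147 and 21677 RPKM (log2 fold change -0.98 ± 0.26, SE, adjusted p = 0.00378), just short of the fold limit. It was called lower without Δ*creA-gpdA*(p)::*clrB* replicate 1 (-1.14) or Δ*amyR* replicate 2 (-1.05). *xyn1* was the gene with the most reads in Δ*amyR* (1.59% of the reads) and was also among the 5 with the most in Δ*creA-gpdA*(p)::*clrB* (2.47%). PDE_02682 (-3.01) and PDE_02101 (-2.15) were also called lower. The study had placed PDE_02418, PDE_04478, *xyn1* and PDE_02101 in a group clustered on libraries that included Δ*creA-gpdA*(p)::*clrB*. The counts of this list are therefore descriptions and not independent evidence.

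Genes that act on the side groups of hemicellulose moved in both directions. Of 6 genes for the release of arabinose, 3 were called lower (15.5% of all genes) and 1 higher (14.0% of all genes). The predicted arabinofuranosidase PDE_00016 had 304, 258 and 221 RPKM in Δ*amyR* libraries and 2262, 2816 and 3117 RPKM in Δ*creA-gpdA*(p)::*clrB* libraries (log2 fold change -3.73), and PDE_07897 (-3.37) and PDE_06067 (-3.04) were similar, whereas PDE_07585 was higher in Δ*amyR* (61.4, 81.8 and 82.8 RPKM, against 14.9, 16.2 and 13.7 RPKM in Δ*creA-gpdA*(p)::*clrB*, log2 fold change 1.99). Of 8 xylan esterase and glucuronidase genes, 4 were called lower and 2 higher, beside the same shares of all genes. The predicted acetyl xylan esterases PDE_09278 (-3.15) and PDE_04182 (-2.79) and the feruloyl esterase PDE_06649 (-2.47) were lower, and another predicted feruloyl esterase, PDE_08238, was higher, with 194, 209 and 198 RPKM in Δ*amyR* libraries and 33.8, 18.2 and 18.2 RPKM in Δ*creA-gpdA*(p)::*clrB* libraries (log2 fold change 2.78 ± 0.33, SE, adjusted p = 6.2e-07). Enzymes of the same predicted activity thus stood on opposite sides. The lower genes named here are in the study's group clustered on libraries that included Δ*creA-gpdA*(p)::*clrB*. PDE_07585 and PDE_08238 are among its genes higher in Δ*clrB* than in wild-type. The counts of both lists are therefore descriptions.

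Of 5 genes for mannan and galactosides, 3 were called lower (15.5% of all genes) and 1 higher (14.0% of all genes). PDE_02514 and PDE_06023 are in the same group of the study, clustered on libraries that included Δ*creA-gpdA*(p)::*clrB*, so these counts are descriptions. The predicted α-galactosidase PDE_02514 had 42.1, 27.7 and 28.9 RPKM in Δ*amyR* libraries and 988, 1268 and 1178 RPKM in Δ*creA-gpdA*(p)::*clrB* libraries (log2 fold change -5.46 ± 0.30, SE, wild-type 33.9 RPKM). The predicted β-mannanases PDE_06438 (-4.99, and -5.71 without Δ*amyR* replicate 1) and PDE_06023 (-2.29) were lower, and the predicted β-galactosidase PDE_00282 was higher (251, 236 and 221 RPKM, against 58.9, 60.5 and 71.9 RPKM in Δ*creA-gpdA*(p)::*clrB*, log2 fold change 1.55). In the list of xylosidases, which release xylose from short chains, 2 of 8 genes were called higher and 1 lower, near the shares over all genes (14.0% and 15.5%), so this is no result about the list. PDE_07334 was at 1.85 (2.56 without Δ*creA-gpdA*(p)::*clrB* replicate 3). PDE_08037 (1.02) was not called without Δ*creA-gpdA*(p)::*clrB* replicate 1 (0.79) or Δ*amyR* replicate 1 (0.76), and PDE_00049 (-1.21) not without Δ*creA-gpdA*(p)::*clrB* replicate 1 (-0.84) or with scaling to total reads (-0.89).

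The starch degradation genes were far lower in Δ*amyR* than in Δ*creA-gpdA*(p)::*clrB*. Of the 7 genes, 6 were called lower in Δ*amyR* than in Δ*creA-gpdA*(p)::*clrB*, with a median of -3.94. All 7 were called lower in Δ*amyR* than in wild-type (4.18% of all genes, median -5.53). In Δ*creA-gpdA*(p)::*clrB* 1 was called lower than in wild-type (12.2% of all genes, median -0.32). That count became 4 with scaling to total reads, which called 3152 of all 9176 genes lower, and 2 without Δ*creA-gpdA*(p)::*clrB* replicate 3. The glucoamylase gene *gluA* (PDE_09417), whose product cuts glucose from starch chain ends, had 18.6, 19.3 and 26.5 RPKM in Δ*amyR* libraries and 1663, 1349 and 443 RPKM in Δ*creA-gpdA*(p)::*clrB* libraries, with means of 4559 RPKM in Δ*creA* and 1313 RPKM in wild-type (log2 fold change -6.09 ± 0.47, SE, adjusted p = 1.9e-09). The α-amylase gene PDE_01201 (Amy13A), which cuts within the chains, had 1.07, 2.37 and 1.44 RPKM in Δ*amyR* libraries and 188, 160 and 56.1 RPKM in Δ*creA-gpdA*(p)::*clrB* libraries (wild-type 291 RPKM, log2 fold change -6.69 ± 0.51, SE, adjusted p = 1.5e-09). PDE_01354, with a starch-binding domain, had 16.7, 18.9 and 16.3 RPKM in Δ*amyR* libraries and 1596, 1158 and 586 RPKM in Δ*creA-gpdA*(p)::*clrB* libraries (log2 fold change -6.34). For these 3 genes Δ*creA-gpdA*(p)::*clrB* replicate 3 was the lowest of its strain and still far above every Δ*amyR* library. The list took 0.0973%, 0.0944% and 0.0790% of the reads in Δ*amyR* libraries and 0.669%, 0.564% and 0.307% in Δ*creA-gpdA*(p)::*clrB* libraries, against means of 2.06% in Δ*creA* and 0.789% in wild-type. The study had named *gluA*, PDE_01201, PDE_01354, PDE_05527 and PDE_04151 among genes drawn as lower in Δ*amyR*. It had clustered those genes on libraries that included Δ*creA-gpdA*(p)::*clrB*, so the counts of this list are descriptions and not independent evidence.

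The predicted α-glucosidases were less uniform. PDE_03966, whose identifier is near that of *amyR*, had 1.77, 2.14 and 3.41 RPKM in Δ*amyR* libraries and 32.3, 30.2 and 26.3 RPKM in Δ*creA-gpdA*(p)::*clrB* libraries (log2 fold change -3.94 ± 0.29, SE). It was lower in both strains than in wild-type (175 RPKM), by log2 fold changes of -5.75 in Δ*amyR* and -1.81 in Δ*creA-gpdA*(p)::*clrB*. The predicted glucoamylase PDE_05527 was at -2.50. PDE_04151 was called lower at -1.43, but its libraries overlapped (54.5, 52.9 and 85.1 RPKM in Δ*amyR*, against 183, 160 and 64.9 RPKM in Δ*creA-gpdA*(p)::*clrB*). PDE_00400 was not called (-0.44), with 283, 268 and 187 RPKM in Δ*amyR* libraries and 195, 263 and 336 RPKM in Δ*creA-gpdA*(p)::*clrB* libraries.

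**Figure D4:**
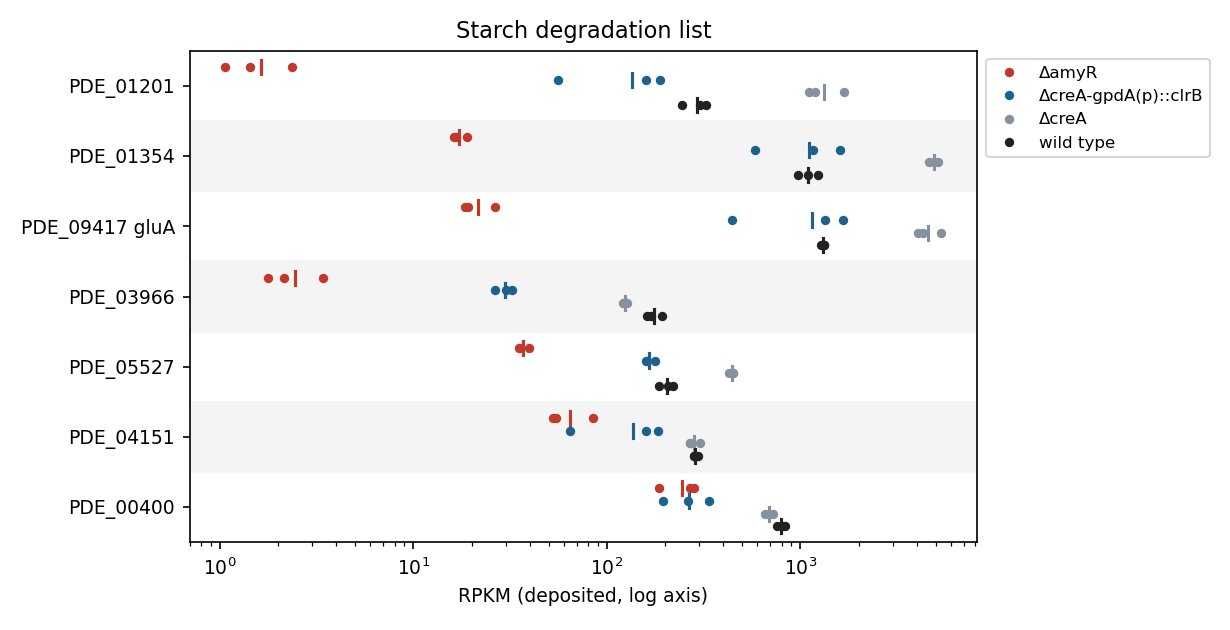
RPKM (log axis) of the 7 genes of the starch degradation list in each library of Δ*amyR*, Δ*creA-gpdA*(p)::*clrB*, then Δ*creA* and wild-type (points; vertical ticks are means of 3 libraries). For the upper 5 genes every Δ*amyR* library lies below every library of the other strains, and for PDE_00400 at the bottom Δ*amyR* and Δ*creA-gpdA*(p)::*clrB* overlap.

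Of 20 regulator genes that the study had picked by the cellulase halos of deletion strains, 6 were called higher in Δ*amyR*, *creA* among them, and 3 lower, *amyR* and *clrB* among them. Over all genes 14.0% were called higher and 15.5% lower, so the count of lower calls is near its share and is no result about the list. *xlnR* (PDE_07674), the gene of the xylanase activator, had 71.7, 60.8 and 49.1 RPKM in Δ*amyR* libraries and 125, 119 and 64.1 RPKM in Δ*creA-gpdA*(p)::*clrB* libraries. This gene was called lower at a log2 fold change of -1.10 ± 0.22 (SE, adjusted p = 2.7e-04) although the strains overlapped, and it was not called with scaling to total reads (-0.76) or without Δ*creA-gpdA*(p)::*clrB* replicate 1 (-0.98), Δ*creA-gpdA*(p)::*clrB* replicate 2 (-0.90) or Δ*amyR* replicate 3 (-0.96). *clrB-2* (PDE_05883), which resembles *clrB*, did not pass the fold limit between the strains (55.2, 51.1 and 47.7 RPKM in Δ*amyR*, against 53.7, 62.1 and 72.9 RPKM in Δ*creA-gpdA*(p)::*clrB*, log2 fold change -0.63) and was called higher than in wild-type (16.1 RPKM) in both, by 2.08 in Δ*amyR* and 2.71 in Δ*creA-gpdA*(p)::*clrB*. The repressor gene *ace1* (PDE_01988) was at 0.89, not called, but called higher with scaling to total reads (1.23), with limma on log2(RPKM + 1) or log2(RPKM + 0.1) (both 1.23), and without Δ*creA-gpdA*(p)::*clrB* replicate 2 (1.05). The largest difference besides *creA* and *amyR* was at PDE_01706, with 306, 431 and 681 RPKM in Δ*amyR* libraries and 20.4, 29.6 and 50.4 RPKM in Δ*creA-gpdA*(p)::*clrB* libraries (wild-type 360 RPKM, log2 fold change 3.48 ± 0.48, SE, adjusted p = 4.4e-06). PDE_09023 (1.64), PDE_08462 (1.62), PDE_07134 (1.59) and PDE_03268 (1.006) were also called higher, the last not without Δ*creA-gpdA*(p)::*clrB* replicate 1 (0.88) or Δ*amyR* replicate 2 (0.97). The developmental regulator genes *stuA* (PDE_04095, 0.15) and *flbC* (PDE_08372, -0.60) were not called.

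The ribosomal protein genes were lower in Δ*amyR* as a block. Of 82 genes, 81 were called lower and 0 higher, with a median of -3.68 and a range from -4.08 to -0.48. The gene of L36e (PDE_03668) had 94.0, 71.1 and 81.9 RPKM in Δ*amyR* libraries and 1171, 1070 and 1079 RPKM in Δ*creA-gpdA*(p)::*clrB* libraries (log2 fold change -4.08 ± 0.28, SE, adjusted p = 3.2e-10), and that of S3e (PDE_02754) had 87.0, 75.0 and 62.8 RPKM in Δ*amyR* libraries and 1015, 865 and 906 RPKM in Δ*creA-gpdA*(p)::*clrB* libraries (-3.96). The 82 genes together took 0.607%, 0.476% and 0.533% of the reads in Δ*amyR* libraries and 5.67%, 5.05% and 4.87% in Δ*creA-gpdA*(p)::*clrB* libraries, with means of 2.71% in Δ*creA* and 1.40% in wild-type. The wild-type level lay between the 2 strains. In Δ*amyR* 35 of the 82 were called lower than in wild-type (4.18% of all genes, median -0.98). In Δ*creA-gpdA*(p)::*clrB* 73 were called higher than in wild-type (11.3% of all genes, median 2.65). Members were mostly taken from sets that the study had drawn from genes lower in Δ*amyR* and grouped by higher expression in Δ*creA-gpdA*(p)::*clrB* as well as Δ*creA*, so none of these counts is independent evidence, that between the 2 strains included.

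Genes for folding, translocation and glycosylation in the endoplasmic reticulum, where secreted enzymes are made ready, differed less. Of 15, 13 were called lower in Δ*amyR* and 0 higher, with a median of -1.52, and 8 were called lower with scaling to total reads. The chaperone gene PDE_08980 (BiP type) had 79.3, 93.6 and 74.9 RPKM in Δ*amyR* libraries and 525, 200 and 256 RPKM in Δ*creA-gpdA*(p)::*clrB* libraries (log2 fold change -2.29 ± 0.33, SE, adjusted p = 8.1e-06). The translocon subunit gene PDE_09594 (SEC61 alpha) was at -2.07, the ribophorin gene PDE_05554 at -1.82 and the calnexin gene PDE_08629 at -1.74. Against wild-type, 1 of the 15 was called lower in Δ*amyR* (4.18% of all genes) and 3 were called higher in Δ*creA-gpdA*(p)::*clrB* (11.3% of all genes). Counts this small beside those shares are no result about the list. This list, too, came mostly from those sets, and its counts are descriptions.

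Genes of the sporulation list were lower in Δ*amyR*, all 3 of 3. PDE_09832 had 2095, 1760 and 2496 RPKM in Δ*amyR* libraries and 30201, 13429 and 23397 RPKM in Δ*creA-gpdA*(p)::*clrB* libraries, with a wild-type mean of 12293 RPKM (log2 fold change -3.72 ± 0.39, SE, adjusted p = 1.1e-07). PDE_04496, annotated as scytalone dehydratase, an enzyme of melanin synthesis, was at -3.72 and PDE_09715 at -3.13. The 3 genes took 0.130%, 0.110% and 0.151% of the reads in Δ*amyR* libraries and 1.75%, 0.764% and 1.35% in Δ*creA-gpdA*(p)::*clrB* libraries. Δ*creA-gpdA*(p)::*clrB* replicate 2 was the lowest of its strain in each of the 3. All 3 were called lower in Δ*amyR* than in wild-type (4.18% of all genes) and higher in Δ*creA-gpdA*(p)::*clrB* than in wild-type (11.3% of all genes). All 3 also belong to those sets, so that these counts too are descriptions.

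Among the runs with higher calls was one with both subunits of fatty acid synthase. The 9 genes PDE_01212 to PDE_01220 were all called higher, with a median of 2.69, and took 5.003%, 5.85% and 7.23% of the reads in Δ*amyR* libraries, against 0.412%, 0.845% and 0.556% in Δ*creA-gpdA*(p)::*clrB* libraries and a mean of 1.64% in wild-type. PDE_01217, annotated as the α subunit of the fungal fatty acid synthase, had 1862, 2138 and 2720 RPKM in Δ*amyR* libraries and 101, 266 and 181 RPKM in Δ*creA-gpdA*(p)::*clrB* libraries (wild-type 493 RPKM, log2 fold change 3.25). PDE_01220, the β subunit, was at 2.62. The predicted branched-chain amino acid aminotransferase PDE_01215 had 4554, 6191 and 7521 RPKM in Δ*amyR* libraries and 277, 625 and 454 RPKM in Δ*creA-gpdA*(p)::*clrB* libraries (log2 fold change 3.39). Against wild-type all 9 were called higher in Δ*amyR* (3.36% of all genes). In Δ*creA-gpdA*(p)::*clrB* 1 was called lower than in wild-type, near the share over all genes (12.2%). The study had named these genes from a group drawn as higher in Δ*amyR* and clustered on libraries that included Δ*creA-gpdA*(p)::*clrB*, so neither the counts against wild-type nor that between the 2 strains are independent evidence. The run of calls in the same direction went on to PDE_01222, and PDE_01212, PDE_01217 and PDE_01220 were among the 5 genes with the most reads in Δ*amyR*.

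The homogentisate route breaks phenylalanine and tyrosine down to fumarate and acetoacetate, and the run PDE_08904 to PDE_08908 holds the annotations of its successive enzymes. 4-hydroxyphenylpyruvate dioxygenase (PDE_08904), which makes homogentisate, had 27.2, 38.4 and 25.8 RPKM in Δ*amyR* libraries and 0.584, 0.290 and 0.602 RPKM in Δ*creA-gpdA*(p)::*clrB* libraries (log2 fold change 5.60). The homogentisate dioxygenase gene PDE_08906, whose product opens the ring, had 1056, 1032 and 1011 RPKM in Δ*amyR* libraries and 5.81, 8.27 and 13.2 RPKM in Δ*creA-gpdA*(p)::*clrB* libraries (wild-type 336 RPKM, log2 fold change 6.49 ± 0.56, SE, adjusted p = 9.2e-09). PDE_08908, maleylacetoacetate isomerase, was at least 279-fold higher in Δ*amyR*, and PDE_08907, fumarylacetoacetase, the last step, had 1712, 1488 and 1793 RPKM in Δ*amyR* libraries and 21.7, 39.8 and 50.05 RPKM in Δ*creA-gpdA*(p)::*clrB* libraries (log2 fold change 5.14). PDE_08905 had no read in Δ*creA-gpdA*(p)::*clrB* and was at least 25.01-fold higher in Δ*amyR*. Against wild-type, 4 of the 5 were called higher in Δ*amyR* (3.36% of all genes) and all 5 lower in Δ*creA-gpdA*(p)::*clrB* (12.2% of all genes). The run was chosen by calls between the 2 strains, so these counts are descriptions. Outside the run, PDE_04228, annotated as a hydroxylase of 3-hydroxyphenylacetate, had 1325, 1091 and 1151 RPKM in Δ*amyR* libraries and 4.71, 3.42 and 4.01 RPKM in Δ*creA-gpdA*(p)::*clrB* libraries (log2 fold change 7.87 ± 0.78, SE, wild-type 245 RPKM). PDE_05907, annotated as indoleamine 2,3-dioxygenase, which opens the ring of tryptophan, had 282, 324 and 192 RPKM in Δ*amyR* libraries and 3.62, 2.97 and 1.06 RPKM in Δ*creA-gpdA*(p)::*clrB* libraries (log2 fold change 6.37), and was not called in Δ*amyR* over wild-type (0.50).

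Among the 10 largest increases with reads in both strains, several were not called between Δ*amyR* and wild-type. PDE_09192 had 837, 2442 and 4772 RPKM in Δ*amyR* libraries and 0.853, 0.847 and 1.51 RPKM in Δ*creA-gpdA*(p)::*clrB* libraries, with a mean of 2176 RPKM in wild-type and 1.82 RPKM in Δ*creA* (log2 fold change 10.94 ± 1.21, SE, adjusted p = 2.6e-07). Δ*amyR* replicate 3 was the highest of its strain by a wide margin, and without it the value was 10.26. The run PDE_09196 to PDE_09202 was laid out in the same way: a median of 6.49 over the 7 genes between the strains (6.31 with the 2 genes at the floor set to their bounds), 0.40 in Δ*amyR* over wild-type and -6.21 in Δ*creA-gpdA*(p)::*clrB* over wild-type. Its PDE_09199, annotated as a cytochrome P450, had 20.3, 51.7 and 119 RPKM in Δ*amyR* libraries and was at least 280-fold higher there. Without Δ*amyR* replicate 3, PDE_09196 moved to 7.34 (8.02 with all libraries), PDE_09200 to 5.49 (6.31) and PDE_09201 to 5.75 (6.49). Without Δ*creA-gpdA*(p)::*clrB* replicate 2, PDE_09197 was at 2.97 (2.35), and without Δ*creA-gpdA*(p)::*clrB* replicate 3, PDE_09200 was at 6.94. PDE_09202, at the floor in Δ*creA-gpdA*(p)::*clrB*, was at least 31.5-fold higher in Δ*amyR*. PDE_09193 (6.75) was also among the 10. By contrast, PDE_06722, of unknown product, had 8029, 7884 and 8442 RPKM in Δ*amyR* libraries and 36.1, 29.2 and 25.4 RPKM in Δ*creA-gpdA*(p)::*clrB* libraries (log2 fold change 7.73 ± 0.53, SE, adjusted p = 4.0e-10), and was higher in Δ*amyR* than in wild-type (1516 RPKM, 2.82) and lower in Δ*creA-gpdA*(p)::*clrB* than in wild-type (-4.91). PDE_03282, annotated as glycerate dehydrogenase, had 1147, 824 and 783 RPKM in Δ*amyR* libraries and 2.72, 3.15 and 5.38 RPKM in Δ*creA-gpdA*(p)::*clrB* libraries (log2 fold change 7.60; wild-type 50.1 RPKM). PDE_06305, of unknown product, was at 7.24, and at 8.23 without Δ*creA-gpdA*(p)::*clrB* replicate 3.

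In all, 14 runs of at least 5 consecutive identifiers were called higher throughout, 86 genes, and 8 runs lower throughout, 67 genes. Runs were chosen by calls between these 2 strains, so their counts and medians against wild-type, above and below, are descriptions. Over all genes, 3.36% were called higher and 4.18% lower in Δ*amyR* than in wild-type. For Δ*creA-gpdA*(p)::*clrB* over wild-type these shares were 11.3% and 12.2%. Apart from the runs described above, those with higher calls had medians between 1.25 (PDE_05450 to PDE_05455) and 3.78 (PDE_09241 to PDE_09245, 2.29 with the gene at the floor set to its bound). PDE_00928 to PDE_00933 (median 3.28, or 3.33 with 2 genes at their bounds) includes a predicted cystathionine γ-lyase, an enzyme of sulfur amino acid metabolism, PDE_00928, with 280, 433 and 624 RPKM in Δ*amyR* libraries and 18.2, 19.4 and 10.3 RPKM in Δ*creA-gpdA*(p)::*clrB* libraries. Its PDE_00932 was at 4.09, and at 5.37 without Δ*creA-gpdA*(p)::*clrB* replicate 2. In PDE_07204 to PDE_07208 (median 2.43) no gene was called between Δ*amyR* and wild-type and all 5 were called lower in Δ*creA-gpdA*(p)::*clrB* than in wild-type, and the 6 genes PDE_04237 to PDE_04242 (median 1.86) were laid out alike. In the run PDE_04271 to PDE_04277 (median 3.25), 4 of 7 genes had at most 3 reads in every Δ*creA-gpdA*(p)::*clrB* library, and the median with these at their bounds was 2.12. Its PDE_04272, PDE_04275 and PDE_04277 lost their calls when single libraries of either strain were left out, as did PDE_04241, PDE_05452 (0.97 without Δ*creA-gpdA*(p)::*clrB* replicate 2) and PDE_09388 in other runs. Without Δ*creA-gpdA*(p)::*clrB* replicate 3, PDE_00301, PDE_00302, PDE_00303 and PDE_04242 were at 2.99, 3.47, 3.08 and 3.27, against 2.28, 2.87, 2.36 and 2.32 with all libraries, and without Δ*creA-gpdA*(p)::*clrB* replicate 2, PDE_06566 and PDE_06567 were at 2.53 and 2.996 (1.77 and 2.26).

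The longest runs with lower calls held 20 and 12 genes. The 12 genes PDE_09999 to PDE_10010 had a median of -5.40 and include annotations for paspaline synthase (PDE_10000, -2.02), geranylgeranyl diphosphate synthase (PDE_10001, -3.73) and verruculogen synthase (PDE_10009), names from the synthesis of fungal indole toxins. PDE_10009 had 2.60, 3.08 and 2.24 RPKM in Δ*amyR* libraries and 256, 65.5 and 159 RPKM in Δ*creA-gpdA*(p)::*clrB* libraries, with a mean of 24.8 RPKM in wild-type (log2 fold change -6.21 ± 0.46, SE, adjusted p = 1.1e-09). PDE_10006 was at -5.56, and at -6.17 without Δ*amyR* replicate 1. All 12 were called lower in Δ*amyR* than in wild-type (4.18% of all genes), and 10 were called higher in Δ*creA-gpdA*(p)::*clrB* than in wild-type (11.3% of all genes). The choice of the run by calls between the 2 strains makes these counts descriptions. The longest run, the 20 genes PDE_00792 to PDE_00811, had a median of -3.64 (-2.14 in Δ*amyR* over wild-type, 1.73 in Δ*creA-gpdA*(p)::*clrB* over wild-type). In its PDE_00794, Δ*amyR* libraries had 11.9, 11.4 and 11.1 RPKM and Δ*creA-gpdA*(p)::*clrB* libraries 350, 118 and 290 RPKM (log2 fold change -4.77).

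PDE_01064 to PDE_01071 (8 genes, median -4.81) includes a predicted prenyltransferase of cyclic dipeptides, PDE_01066, with 28.97, 23.3 and 23.1 RPKM in Δ*amyR* libraries and 316, 127 and 240 RPKM in Δ*creA-gpdA*(p)::*clrB* libraries. PDE_01073 to PDE_01077 (5 genes, median -4.23) and PDE_01429 to PDE_01434 (6 genes, median -3.79) hold 3 of the named large decreases: PDE_01076 (-7.30), PDE_01430 (-6.42) and PDE_01429, which was at least 211-fold lower in Δ*amyR*. Against wild-type, 7 of the 8 genes of PDE_01064 to PDE_01071 were called lower in Δ*amyR* and all 8 higher in Δ*creA-gpdA*(p)::*clrB*. By the same comparisons, 2 of the 5 genes of PDE_01073 to PDE_01077 were called lower in Δ*amyR* and all 5 higher in Δ*creA-gpdA*(p)::*clrB*, and 4 of the 6 genes of PDE_01429 to PDE_01434 were called lower in Δ*amyR* and 5 higher in Δ*creA-gpdA*(p)::*clrB*. PDE_02138 to PDE_02142 (5 genes) had a median of -2.56, with all 5 called lower in Δ*amyR* and 2 higher in Δ*creA-gpdA*(p)::*clrB* than in wild-type. In the genes with values above, Δ*creA-gpdA*(p)::*clrB* replicate 2 was the lowest Δ*creA-gpdA*(p)::*clrB* library and still above all Δ*amyR* libraries, as in the sporulation list, whose part in these differences was not tested. PDE_03926 to PDE_03931 (6 genes, median -3.27) differed from this: none was called between Δ*amyR* and wild-type, 5 were called higher in Δ*creA-gpdA*(p)::*clrB* than in wild-type, and in PDE_03930 Δ*creA-gpdA*(p)::*clrB* replicate 1 was the lowest, with 6.56, 6.46 and 10.5 RPKM in Δ*amyR* libraries and 115, 207 and 183 RPKM in Δ*creA-gpdA*(p)::*clrB* libraries. The calls of PDE_04565 to PDE_04569 (median -1.10) were near the fold limit, and PDE_04567, PDE_04568 and PDE_04569 were not called without Δ*creA-gpdA*(p)::*clrB* replicate 1 (-0.94, -0.75 and -0.83) or Δ*amyR* replicate 2, nor PDE_04567 and PDE_04569 without Δ*amyR* replicate 1. With scaling to total reads these 3 genes were not called either (-0.77, -0.71 and -0.68), nor was PDE_03931 (-0.78, against -1.11 with TMM). PDE_04566 was at -1.70, and at -1.11 without Δ*creA-gpdA*(p)::*clrB* replicate 1.

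**Figure D5:**
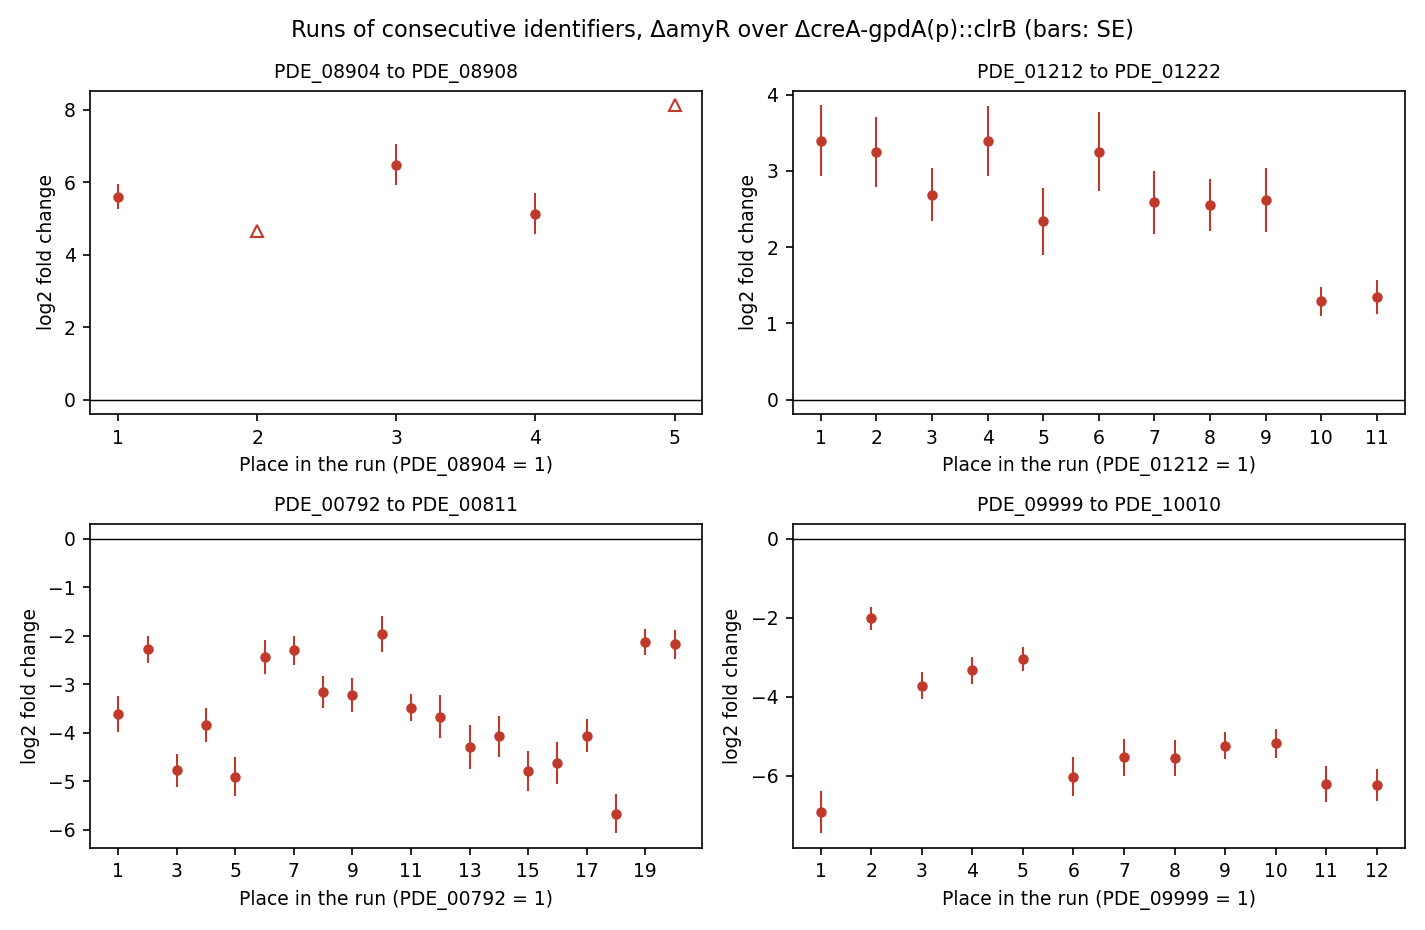
Log2 fold change of Δ*amyR* over Δ*creA-gpdA*(p)::*clrB* (points, with SE bars) for each gene of 4 runs of consecutive identifiers, by place in the run. Open triangles are lower bounds, as RPKM ratios not scaled by TMM, for the 2 genes with at most 3 reads in every Δ*creA-gpdA*(p)::*clrB* library. All genes of PDE_08904 to PDE_08908 and PDE_01212 to PDE_01222 lie above 0 and all genes of PDE_00792 to PDE_00811 and PDE_09999 to PDE_10010 below 0, with the sizes varying within each run.

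The other large decreases were in genes without a described product. PDE_09492 had 1.11, 1.10 and 1.35 RPKM in Δ*amyR* libraries and 245, 33.2 and 143 RPKM in Δ*creA-gpdA*(p)::*clrB* libraries (log2 fold change -7.17, and -6.54 without Δ*creA-gpdA*(p)::*clrB* replicate 1), and PDE_09491, with the identifier before it, was at -6.67. PDE_07434 was at -7.16 and PDE_07091 at -6.73, the second at -5.94 without Δ*creA-gpdA*(p)::*clrB* replicate 1. Δ*creA-gpdA*(p)::*clrB* replicate 2 was again the lowest Δ*creA-gpdA*(p)::*clrB* library in all 4, down to 4.76 RPKM beside 72.7 and 57.1 RPKM for PDE_07434. Among genes at the floor in Δ*amyR*, PDE_02681 was at least 146-fold and PDE_04665 at least 119-fold lower.

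The genes beside the engineered loci, by identifier, showed calls of their own. Of those around *amyR*, PDE_03962 (-0.10), PDE_03963 (-0.80) and PDE_03965 (0.59) were not called. PDE_03966, given above with the α-glucosidases, was called lower (-3.94). Around *creA*, PDE_03166 had 5.24, 5.58 and 4.60 RPKM in Δ*amyR* libraries and 13.2, 12.5 and 14.6 RPKM in Δ*creA-gpdA*(p)::*clrB* libraries (log2 fold change -1.71), PDE_03167 was at -1.83, and PDE_03169 and PDE_03170 were not called. Around *clrB*, PDE_06001 was called lower at -1.33, not with scaling to total reads (-0.99), and PDE_05997 (0.73), PDE_05998 and PDE_06000 were not called. PDE_05997 was called higher with scaling to total reads (1.06). Effects of the constructs on these neighbours cannot be told apart from those of the regulators.

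Gene sets that the study had drawn gave a wider view. Over all genes, 15.5% were called lower and 14.0% higher in Δ*amyR* than in Δ*creA-gpdA*(p)::*clrB*. Of 103 genes that were lower in Δ*clrB* than in wild-type, 51 were called lower in Δ*amyR* than in Δ*creA-gpdA*(p)::*clrB* and 8 higher (median -1.10), and of 121 genes higher in Δ*clrB*, 86 were called higher and 1 lower (median 2.40). Each strain's own counts against wild-type for the first set were 30 higher and 44 lower in Δ*amyR* and 50 higher and 23 lower in Δ*creA-gpdA*(p)::*clrB*. For the second set they were 58 higher and 3 lower in Δ*amyR* and 8 higher and 64 lower in Δ*creA-gpdA*(p)::*clrB*. Over all genes, 3.36% were called higher and 4.18% lower in Δ*amyR* than in wild-type, and 11.3% and 12.2% in Δ*creA-gpdA*(p)::*clrB*. The 3 lower and the 8 higher of the second set do not exceed those shares. The wild-type libraries had been used both to draw these sets and in these counts. Of 97 genes whose proteins the study detected in the culture fluid of Δ*creA-gpdA*(p)::*clrB*, 45 were called lower in Δ*amyR* and 8 higher, with a median of -0.86. Among the 8, PDE_01252 had 4675, 5451 and 5214 RPKM in Δ*amyR* libraries and 584, 722 and 869 RPKM in Δ*creA-gpdA*(p)::*clrB* libraries (log2 fold change 2.48 ± 0.17, SE, adjusted p = 3.6e-10). The set of 97 was chosen by protein in 1 of the 2 strains compared, after a longer time on cellulose than the RNA, which can favour genes high in that strain. Of 85 tested genes with proteins detected for wild-type, 36 were called lower and 13 higher (median -0.73). For the sets drawn from Δ*amyR* itself, 82 of 131 genes higher than in wild-type were called higher than in Δ*creA-gpdA*(p)::*clrB* and 18 lower, and of 579 genes lower than in wild-type, 346 were called lower and 34 higher. These Δ*amyR* libraries chose the members, so the counts are descriptions.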

How the data were processed

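The authors extracted total RNA, prepared cDNA libraries from its mRNA and sequenced them on an Illumina platform, with CASAVA 1.8 in the submitters' processing notes, and used SOAP2 to place the reads on gene models of *P*. *oxalicum* 114-2. The deposited table of 9832 genes with reads holds, for each library, a raw count of reads with a single match. RPKM, also deposited, is scaled to the library's total reads on genes. The deposited coverage is the percent of a transcript covered by reads, and it was used for the engineered genes alone. Filters are not given in the sources used here. The table names no coordinates, and no genome of this strain was used. Gene names and products are those of the study and its supplementary annotation.

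All 24 libraries were fitted jointly, 8 group means in all, with the quasi-likelihood method of edgeR 4.0.16 (R 4.3.3) after TMM scaling. The 9176 genes tested reached 1 RPKM in 3 or more libraries. A gene was called at a p under 0.05, adjusted by the Benjamini-Hochberg procedure over all genes, and an absolute log2 fold change above 1. Bounds set a group with at most 3 reads in every library to 3 reads. They are ratios of RPKM without TMM scaling and leave out the sampling noise of the other group. No sample was left out, and groups were taken from the labels. The study calls its replicates biological. The p-values rest on a spread between replicates that is shared over all 8 groups, while the Δ*creA-gpdA*(p)::*clrB* replicates stood farther apart than those of Δ*amyR*. Genes with few reads are imprecise at the depths given in the report.

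On simulated data with 200 changed genes of 9176, edgeR called all 200 and 4 unchanged genes. The simulation gave every gene the same dispersion and changed only genes well above the floor, by more than the fold limit. It checked that the fit ran as intended and could not measure error rates in the real comparison, where far more genes differ. Alternatives were scaling to total reads, median-ratio scaling, no filter, the 6 libraries alone, DESeq2 1.42.0, a block for the replicate number, limma 3.58.1 on log2(RPKM + 1) and log2(RPKM + 0.1), and leaving out single libraries. Plots were drawn with matplotlib 3.10.9, and tables with pandas 2.3.3 under Python 3.11.15 (numpy 2.4.6).

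Members and lists were chosen with earlier results of these data known. Named genes were all members of the lists of engineered genes, regulators, cellulases, β-glucosidases, starch degradation, transporters, swollenin, sporulation and neighbouring genes, up to 4 members per direction of the other lists, the 10 largest increases and decreases whose libraries do not overlap and whose lower group averages over 3 reads, the 3 largest bounds per direction, the 5 genes with the most reads per strain, and runs of at least 5 consecutive identifiers called in the same direction.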

Additional observations from a re-analysis of the deposited data

How the results depend on the processing

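The counts of 1288 genes called higher and 1419 called lower in Δ*amyR* than in Δ*creA-gpdA*(p)::*clrB* became 1948 and 949 with scaling to total reads, 1665 and 809 with limma on log2(RPKM + 1), and 2008 and 907 with limma on log2(RPKM + 0.1). These 3 settings use total-scaled values, which place the median of all genes at 0.34, 0.29 and 0.35. Median-ratio scaling gave 1326 and 1375, no filter 1293 and 1432, the 6 libraries alone 1232 and 1381, and DESeq2 1326 and 1381. Leaving out each library in turn gave 1159 to 1391 higher and 1198 to 1556 lower, with the lowest counts without Δ*creA-gpdA*(p)::*clrB* replicate 1. Under the 3 total-scaled settings the endoplasmic reticulum genes called lower were 8 rather than 13, and the starch degradation genes called lower in Δ*creA-gpdA*(p)::*clrB* than in wild-type were 4 rather than 1; 2 were called lower without Δ*creA-gpdA*(p)::*clrB* replicate 3. Cellulase genes called lower numbered 12 to 14, xylanase genes 6 to 7, starch degradation genes 6 and ribosomal protein genes 81 when each library was left out. Of 328 named genes, 39 lost their call under at least 1 setting, and no called value changed sign. Low genes moved most with the pseudocount, which pulls their fold changes toward 0.

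Libraries with the same replicate number did not deviate together (correlations of -0.21, -0.01 and -0.28), and no library correlated best with its own number. With the replicate number as a block the counts were 1285 and 1409 over all libraries, and 1130 and 1242 over the 6 libraries. Depth limits genes near 3 reads, for which no fold change beyond a bound was given.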

Other observations

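Pectin is a plant cell wall polymer apart from cellulose and xylan. In Δ*amyR* against Δ*creA-gpdA*(p)::*clrB*, 4 of 8 tested pectin genes were called lower (15.5% of all genes) and 1 higher (14.0% of all genes). The predicted endopolygalacturonase PDE_07153 had 7.17, 8.22 and 4.64 RPKM in Δ*amyR* libraries and 38.1, 60.8 and 57.9 RPKM in Δ*creA-gpdA*(p)::*clrB* libraries (log2 fold change -3.31 ± 0.28, SE), and the predicted pectin acetylesterase PDE_03289 had 34.7, 24.8 and 20.5 RPKM in Δ*amyR* libraries and 6.47, 7.47 and 7.76 RPKM in Δ*creA-gpdA*(p)::*clrB* libraries (1.54).

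Of 13 genes for remodelling of the fungal cell wall, 3 were called lower and 1 higher, near the shares over all genes (15.5% and 14.0%), so the counts are no result about the group. The chitinase-type genes stood on both sides: PDE_01573 had 23.1, 31.01 and 18.8 RPKM in Δ*amyR* libraries and 117, 203 and 121 RPKM in Δ*creA-gpdA*(p)::*clrB* libraries (-2.94), and PDE_08122 had 584, 490 and 284 RPKM in Δ*amyR* libraries and 89.2, 82.8 and 69.0 RPKM in Δ*creA-gpdA*(p)::*clrB* libraries (2.16).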
